A study of Rattus norvegicus with 15 samples.

Results

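The response of dissociated rat dorsal root ganglion (DRG) cells to 6 h of dbcAMP was measured on 3 of the 15 two-colour arrays of the series, those labelled as the 3 replicates of that time. Treated cultures received 1.5 mM dbcAMP for 6 h, and control cultures received medium alone. All cells came from the L4 and L5 ganglia of juvenile rats, and the coating of a dish, poly-L-lysine or myelin in the labels, is not tied to an array. On every array Cy5 labelled the treated cells and Cy3 the control cells, so each deposited value was read as treated over control, and a dye bias of a single probe would add to its ratio at every time. The other 12 arrays hold 1, 3, 12 and 18 h of the same treatment, 3 arrays each, and serve here as the setting in which 6 h was read. The treatment protocol lists 0 h in place of 1 h. The sources do not tie the 3 arrays of 1 time to separate cultures, and a p-value therefore measures the spread of arrays alone, possibly a technical one. A ratio gives no level, so the presence of neurons, glia or other cells could not be checked from their markers, and more cells of a type cannot be told apart from more RNA per cell.

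Cyclic AMP is the second messenger made by adenylyl cyclase. It activates protein kinase A, which phosphorylates the transcription factor CREB, and CREB bound to the cAMP response element switches on a first wave of immediate early genes and feedback inhibitors. Dibutyryl cAMP (dbcAMP) crosses the cell membrane and is used to raise this signal from outside. In DRG neurons a raised cAMP signal is known for letting axons grow on myelin, a growth that needs transcription, and 6 h lies between the first wave and the late state of the cells.

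Of 5088 probes, 4423 had 1 gene symbol, and 5058 were tested, having a ratio at 6 h on 2 arrays or more. At 6 h, 212 probes differed from a ratio of 1 (4.19% of those tested; limma, Benjamini-Hochberg adjusted p under 0.05), 93 higher (1.84%) and 119 lower (2.35%) with dbcAMP than in control cells. Of these, 177 carried a gene symbol, 79 higher and 98 lower. An unadjusted p under 0.05 was reached by 893 probes. The median log2 ratio of all probes tested was 0.02, and 53.1% of them lay above 0. A change of at least 2-fold was found for 74 of the called probes. The named probes with the largest increases included those of the secreted proteins Tnfaip6, Inhba and Il6, and many of those with the largest decreases came from a few source plates and were already below 0 at 1 h.

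Array 3 had the widest spread of the 3. The SD of its log2 ratios was 0.642, against 0.434 on array 1 and 0.377 on array 2, and it lacked a ratio for 89 probes, against 53 and 28. It was not alone in the series. The SD was 0.627 and 0.660 on arrays 1 and 2 of 12 h and between 0.645 and 0.703 on the arrays of 18 h. Array 3 of 12 h had 0.383, and the arrays of 1 and 3 h had between 0.36 and 0.40. On array 3, 172 probes were over 2-fold higher and 290 were over 2-fold lower. On array 1 these counts were 80 and 87, and on array 2 they were 59 and 48. Across all probes, the Pearson correlation of log2 ratios was 0.50 between arrays 1 and 2, 0.27 between arrays 1 and 3 and 0.24 between arrays 2 and 3. These are correlations across genes, which are not independent replicates, and they are given as a description. Among probes not called, they were 0.312, 0.110 and 0.066, values that leaving out the called probes lowers. Among the 212 called probes they were 0.90, 0.80 and 0.81, values that the choice of probes raises. Of the called probes, 206 had the same sign on all 3 arrays, and 37.5% of all probes with 3 ratios did. With the 12 arrays of the other times, array 3 correlated at 0.115 to 0.286, a range that holds its values with the other arrays of 6 h, and the highest was with array 2 of 3 h. Leaving out an array of 6 h changed many calls of single genes. Of 84 named probes called at 6 h, 35 kept the call when any 1 array was left out, 8 lost it without 1 of the arrays, 25 lost it without either of 2, and 15 lost it whichever array was left out. Ucp1, with 2 ratios, could not be tested this way.

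**Figure D1:**
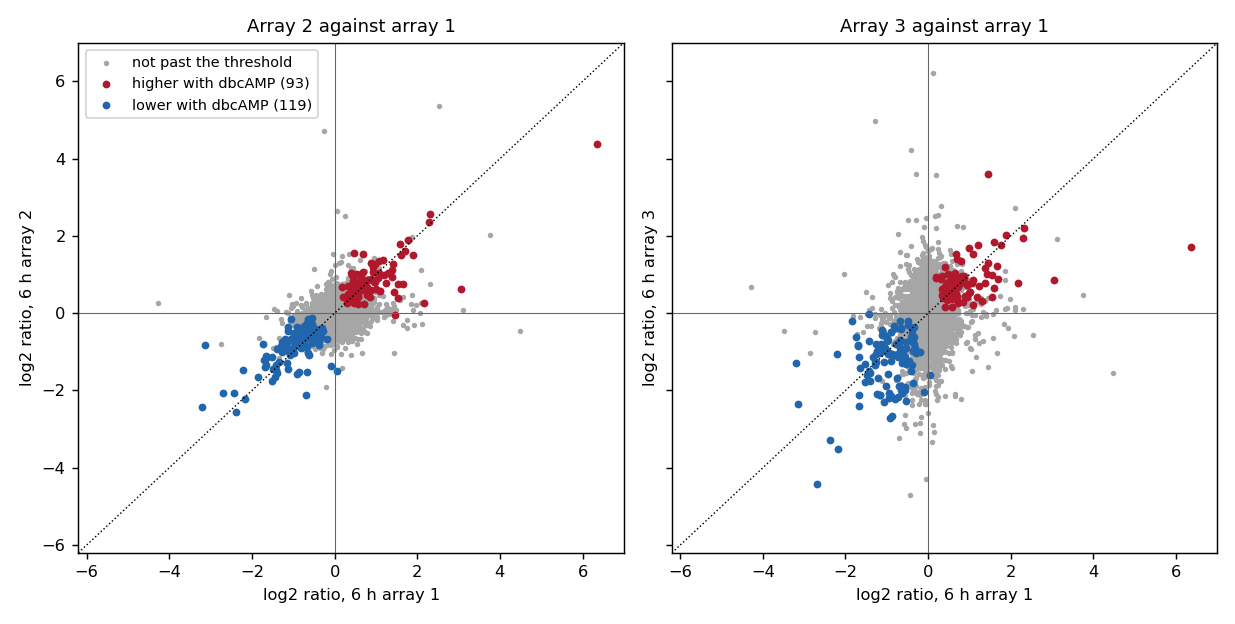
Log2 ratio (dbcAMP over control) of each probe on array 2 (left) and array 3 (right) against array 1 of 6 h, with called probes in red (higher) and blue (lower), the others in grey and equal values on the dotted line. The grey cloud follows the diagonal on the left (r = 0.50 over all probes) and stands upright on the right (r = 0.27), where array 3 spreads far along its own axis.

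Below Barhl1, which is described further on, the highest named means at 6 h were those of Tnfaip6 and Inhba, whose 3 arrays lay close together. Tnfaip6 encodes a secreted hyaluronan-binding protein of inflamed tissue. Its log2 ratios were 2.31, 2.58 and 2.19 on arrays 1, 2 and 3, a mean of 2.36 ± 0.14 (SE of the fit, n = 3) or 5.14-fold, with an adjusted p of 8.5e-07 in limma. Inhba encodes the subunit of activin A and of inhibin A, ligands of the TGF-beta family. Its values were 2.29, 2.37 and 1.94, a mean of 2.20 ± 0.19 (adjusted p = 2.38e-05, limma). For both genes array 3 was the lowest of the 3 and its distance from the others was a small part of the rise.

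Il6, the cytokine that signals through gp130, had log2 ratios of 1.77, 1.90 and 1.76, a mean of 1.81 ± 0.47 or 3.51-fold. The 3 arrays spanned less than those of Tnfaip6, yet the adjusted p was 0.0488 in limma. The fit shares 1 estimate of spread per probe over all times, and the 18 h arrays of this probe read -0.50, 3.25 and 2.83. Il6 lost its call when any array of 6 h was left out, with adjusted p between 0.13 and 0.19. Il6st, which encodes gp130 itself, was higher too, at 0.64, 0.90 and 0.56, a mean of 0.70 (adjusted p = 0.0235, limma), and it also lost its call when any array was left out, with adjusted p between 0.066 and 0.119.

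**Figure D2:**
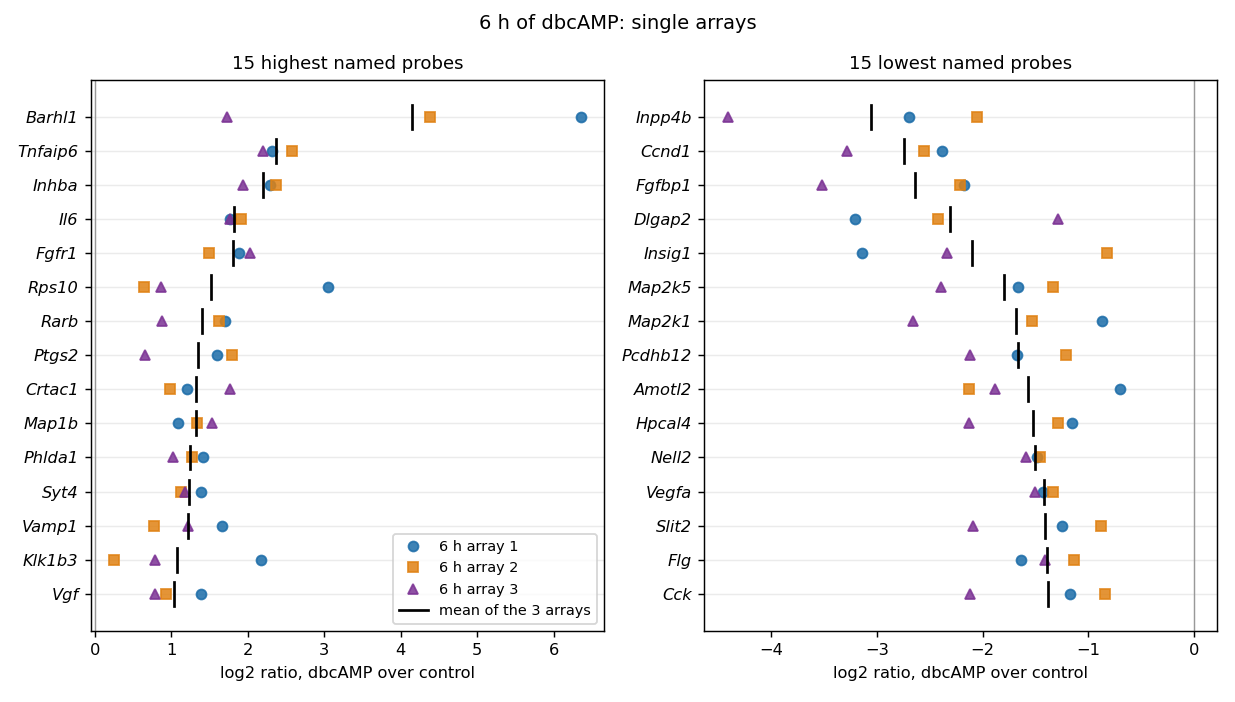
Log2 ratios (dbcAMP over control, x axis) on single arrays of the 15 highest (left) and 15 lowest (right) named probes at 6 h that were called with all 3 arrays on 1 side of 0; a black bar marks the mean. Tnfaip6, Inhba, Il6, Syt4, Nell2 and Vegfa have arrays close together, whereas Barhl1, Rps10 and Klk1b3 are drawn upwards by array 1 and Inpp4b and Fgfbp1 downwards by array 3.

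Other probes among the 15 highest differed in how evenly the arrays carried them. Ptgs2, the inducible cyclooxygenase of prostaglandin synthesis, read 1.59, 1.80 and 0.65 with probe 16H10, a mean of 1.35, and its second probe 52D03 read -0.20, -0.24 and 0.67 and was not called. Fgfr1, a receptor of fibroblast growth factors, read 1.89, 1.50 and 2.03 with probe 29C08, a mean of 1.81, while 2 further probes averaged 0.31 and 0.51 and did not pass. Rarb, a retinoic acid receptor, averaged 1.40, and Phlda1, a pleckstrin homology domain protein induced by growth signals, averaged 1.24 with arrays at 1.42, 1.26 and 1.03. Map1b, a microtubule-associated protein of growing axons, read 1.08, 1.34 and 1.53 with probe 31C04, against 0.57, -0.66 and 0.54 with probe 31C10, which was not called. The highest mean of all, 4.15 for the homeobox gene Barhl1, came from arrays at 6.35, 4.38 and 1.73, and this probe already averaged 4.86 at 1 h. The call of Barhl1 was lost without array 1 (adjusted p = 0.0695), where its mean was 3.05. Rps10, a ribosomal protein, averaged 1.52, and 1 array set it apart, since array 1 read 3.05 and the others 0.64 and 0.86.

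Of 63 synaptic probes, 3 were higher and 2 lower (Syn2 and Stx4), with a median of 0.11, and of 32 neuropeptide probes 2 were higher and 1 lower (Cck), with a median of 0.02. The shares were 4.76% higher and 3.17% lower for synaptic probes and 6.25% and 3.12% for neuropeptide probes. Over all probes tested they were 1.84% and 2.35%. Vgf, the precursor of neuropeptides, read 1.39, 0.93 and 0.78 with probe 1D09, a mean of 1.03 ± 0.14 (adjusted p = 0.000844, limma), and its second probe 52D09 averaged 0.20 and was not called. Syt4, a synaptotagmin of secretory vesicles, read 1.39, 1.12 and 1.18, a mean of 1.23 ± 0.13 (adjusted p = 0.000194). Vamp1, a SNARE protein of synaptic vesicles, averaged 1.21 with arrays between 0.77 and 1.66, and its call was lost without array 1 or without array 3. Cartpt, the precursor of the CART peptide, read 0.33, 0.69 and 0.97, and its call was lost without array 2 or without array 3.

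Promoters are shown for the 4 genes highest at 6 h whose 250 bases before the annotated start hold the full cAMP response element TGACGTCA, because CREB binds this element. The sequences and positions come from RefSeq on the GRCr8 build, are written 5' to 3' on the strand of the gene, and carry the element in capitals. Il6 lies at chr4:5894576-5894825 (minus strand), Vamp1 at chr4:159698644-159698893 (plus strand), Vgf at chr12:25277021-25277270 (minus strand) and Dusp1, the dual-specificity phosphatase that inactivates MAP kinases, at chr10:17184603-17184852 (plus strand).
Il6: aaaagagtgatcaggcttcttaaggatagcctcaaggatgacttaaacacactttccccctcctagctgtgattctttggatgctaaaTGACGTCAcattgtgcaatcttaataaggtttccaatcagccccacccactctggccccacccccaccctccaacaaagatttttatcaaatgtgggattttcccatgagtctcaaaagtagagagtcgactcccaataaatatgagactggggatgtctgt
Vamp1: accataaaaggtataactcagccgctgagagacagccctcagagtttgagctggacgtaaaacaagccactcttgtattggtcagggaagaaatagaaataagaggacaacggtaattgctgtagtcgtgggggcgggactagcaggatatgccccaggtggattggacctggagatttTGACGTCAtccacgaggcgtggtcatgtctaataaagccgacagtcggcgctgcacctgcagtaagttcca
Vgf: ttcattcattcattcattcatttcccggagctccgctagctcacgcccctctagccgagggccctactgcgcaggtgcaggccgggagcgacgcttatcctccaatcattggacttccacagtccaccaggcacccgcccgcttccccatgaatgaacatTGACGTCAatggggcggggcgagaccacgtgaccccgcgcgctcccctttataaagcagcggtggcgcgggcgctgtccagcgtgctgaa
Dusp1: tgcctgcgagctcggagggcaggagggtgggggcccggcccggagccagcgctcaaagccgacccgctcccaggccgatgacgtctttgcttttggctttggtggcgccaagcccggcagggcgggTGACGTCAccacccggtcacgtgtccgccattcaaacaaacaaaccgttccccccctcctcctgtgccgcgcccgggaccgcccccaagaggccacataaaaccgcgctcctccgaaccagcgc
The first base of the element stood at -162 in Il6, -71 in Vamp1, -90 in Vgf and -124 in Dusp1, counted back from the annotated start. TGACGTCA is its own reverse complement and contains the shorter TGACG on both strands. Of the 79 genes with a probe higher at 6 h, 67 had a promoter in the table and 5 of them (7.46%) held TGACGTCA, those 4 and Cartpt. Of the 97 genes with a lower probe, 72 had one and 3 (4.17%) held it. The element was found in 67 of 3336 promoters of genes tested on the arrays (2.01%) and in 531 of all 33469 promoters of that length (1.59%). TGACG on either strand was found in 35.8% of the higher genes, 19.4% of the lower genes, 23.8% of the genes tested on the arrays and 18.2% of all promoters. Tnfaip6 and Inhba, the next highest means after Barhl1, held neither in this window. These shares describe letters in a window and were not tested.

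Among immediate early genes and CREB targets, 4 of 36 probes were higher and 1 was lower, and the median of the list was 0.11, against 0.02 over all probes tested. The list and those that follow were counted by probe, overlap with each other, and were drawn up with earlier results of these data known. Over all probes tested, 1.84% were higher and 2.35% lower, the shares to set beside each list. The higher ones were Sik1, a kinase induced by cAMP that restrains CREB coactivators (0.70, 1.54 and 0.42), Rgs2, which shortens G protein signals (0.74, 0.82 and 0.92), the AP-1 gene Junb (0.77, 0.47 and 0.93) and Myc (0.35, 0.51 and 0.48). Ppargc1a, a coactivator of mitochondrial genes, was lower, at -0.81, -0.55 and -2.23. Its probe, from source plate 36, averaged -0.67 with arrays centred on plate medians and was then not called (adjusted p = 0.11, limma). The 3 arrays of Rgs2 and of Myc lay close together, but Myc lost its call when any of them was left out (adjusted p between 0.0699 and 0.131). Egr1 had a mean of 0.49 with array 2 at 0.92 and the others at 0.32 and 0.24 (adjusted p = 0.0594), and Egr2, Egr3 and Egr4 averaged 0.07, 0.09 and 0.26. Atf3, the stress factor of injured neurons, read -0.29, -0.39 and -0.48, a mean of -0.39 that missed the threshold (adjusted p = 0.072).

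Of 5 dual-specificity phosphatase probes, 2 were higher and none lower. Dusp1 read 0.63, 0.61 and 0.98, and Dusp6, which acts on ERK, read 0.65, 0.97 and 0.87. Both were above 0 at every time, with means at 1, 3, 12 and 18 h of 0.57, 0.76, 0.79 and 0.61 for Dusp1 and 0.56, 0.59, 0.60 and 1.01 for Dusp6. Of 35 probes of cAMP enzymes, Pde4b, the phosphodiesterase that breaks down cAMP, was higher (0.94, 1.21 and 0.75, mean 0.96), and Adcy2, an adenylyl cyclase, was lower with 1 of its 2 probes (52E09: -0.73, -0.39 and -2.17). The other Adcy2 probe averaged -0.08.

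Cytokine genes and their receptors had 3 of 37 probes higher and 1 lower, with a median of 0.09. Beside Il6 and Il6st, the granulocyte growth factor Csf3 was higher (0.43, 1.00 and 0.74, mean 0.72), and the macrophage growth factor Csf1 was lower (-0.71, -0.43 and -1.03, mean -0.72). Csf3 lost its call without array 2 or without array 3, and Csf1 lost its call without array 3. Of 20 chemokine probes, Cxcl2, which attracts neutrophils, was higher at 1.06, 0.91 and 0.79, a mean of 0.92 (adjusted p = 0.000305, limma). Both probes of Ccl2, which attracts monocytes, were lower, at -0.39, -0.48 and -0.53 with probe 26C01 and at -0.34, -0.63 and -0.61 with probe 52C04. Probe 26C01 lost its call when any 1 array was left out (adjusted p between 0.0867 and 0.169, limma). Probe 52C04 lost it without array 2 or without array 3 (adjusted p = 0.0668 and 0.0659). The called chemokines moved in both directions. The 3 arrays of each probe were on 1 side of 0, as they were for 206 of the 212 called probes. Of 22 prostaglandin probes, Ptgs2 with probe 16H10 and the prostaglandin D synthase Ptgds (1.54, 0.39 and 0.99) were higher, and the list's median was -0.19. Ptgds lost its call without array 1 or without array 3.

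Among matrix proteases, their inhibitors and related proteins, 5 of 34 probes were higher and none was lower, with a list median of 0.06. That was 14.7% higher, against 1.84% higher and 2.35% lower over all probes tested. Besides Tnfaip6 they were Slpi, an inhibitor of leukocyte serine proteases (1.24, 0.79 and 0.71, mean 0.91), the tissue plasminogen activator Plat (0.72, 0.83 and 0.69, mean 0.75), the metalloprotease inhibitor Timp1 (0.66, 0.60 and 0.46, mean 0.57) and the urokinase receptor Plaur (0.57, 0.73 and 0.17, mean 0.49). Slpi lost its call when any of the 3 arrays was left out (adjusted p between 0.0717 and 0.159), and Plaur lost it without array 1 or array 2. Has2, which makes hyaluronan, read 0.32, 0.30 and 0.99 and was not called.

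Among antioxidant and stress genes, 2 of 31 probes were higher and 1 was lower. Sod3, the extracellular superoxide dismutase, had nearly equal values on the 3 arrays, 0.88, 0.90 and 0.89, a mean of 0.89 ± 0.09 (adjusted p = 8.69e-05, limma). Hmox1, the inducible heme oxygenase, read 0.46, 0.27 and 0.75, and the glutathione transferase Gstm1 read -0.38, -0.72 and -1.35. The Gstm1 probe, from source plate 43, averaged -0.35 with arrays centred on plate medians and was then not called (adjusted p = 0.267, limma). The 3 probes of the metallothionein gene Mt1 averaged 0.46, 0.47 and -0.05, and none passed. Of 79 probes for glycolysis and transport, many of which repeat Gapdh, 2 were higher, the lactate transporter Slc16a1 (0.65, 0.64 and 0.94) and the glucose transporter Slc2a1 (0.46, 0.48 and 0.33). When any 1 array was left out, Hmox1, Slc16a1 and Slc2a1 lost their calls, with adjusted p between 0.0519 and 0.314, 0.0806 and 0.205, and 0.106 and 0.16. Fth1, the ferritin heavy chain that stores iron, outside this list, read 0.35, 0.46 and 0.40.

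Calls in the lists of cell type markers stand beside 4.19% called over all probes tested. Of 32 sensory neuron probes, 1 was higher, the sodium channel Scn11a of nociceptors (0.58, 0.60 and 0.36), whose call was lost without array 1 or without array 2. The list's median was 0.03. Calca, Trpv1, P2rx3, Scn10a and Prph averaged between -0.06 and 0.08, and the whole list between -0.293 and 0.854. At an unadjusted p under 0.05 (limma), 4 of its 32 probes were higher and 1 was lower. None of 22 Schwann and satellite glia probes and none of 21 fibroblast probes passed the threshold of limma in either direction, with medians of -0.02 and -0.13. At an unadjusted p under 0.05 there were 3 higher and 3 lower glia probes and 2 lower fibroblast probes, and the methods' t-test, which the study's methods name, called no probe of the array after Benjamini-Hochberg adjustment. Of 19 macrophage and leukocyte probes, 3 were lower, namely S100a8 (-0.81, -0.90 and -0.39), S100a9 (-0.38, -0.51 and -0.56) and the defensin Defa5 (-1.85, -1.65 and -0.20). S100a8 lost its call without array 1 or without array 2 (adjusted p = 0.072 and 0.0769, limma), as did Defa5 (adjusted p = 0.113 and 0.0864). S100a9 lost its call without array 2 or without array 3 (adjusted p = 0.0519 and 0.0599). The neutrophil defensins Np4 and RatNP-3b, named after their values were seen, were lower as well, at means of -1.13 and -0.91. The macrophage markers Csf1r, C1qb and Cd14 averaged 0.17, 0.14 and 0.44, and Itgam averaged 0.07, and none of them passed. The part of leukocyte numbers in these decreases was not tested.

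**Figure D3:**
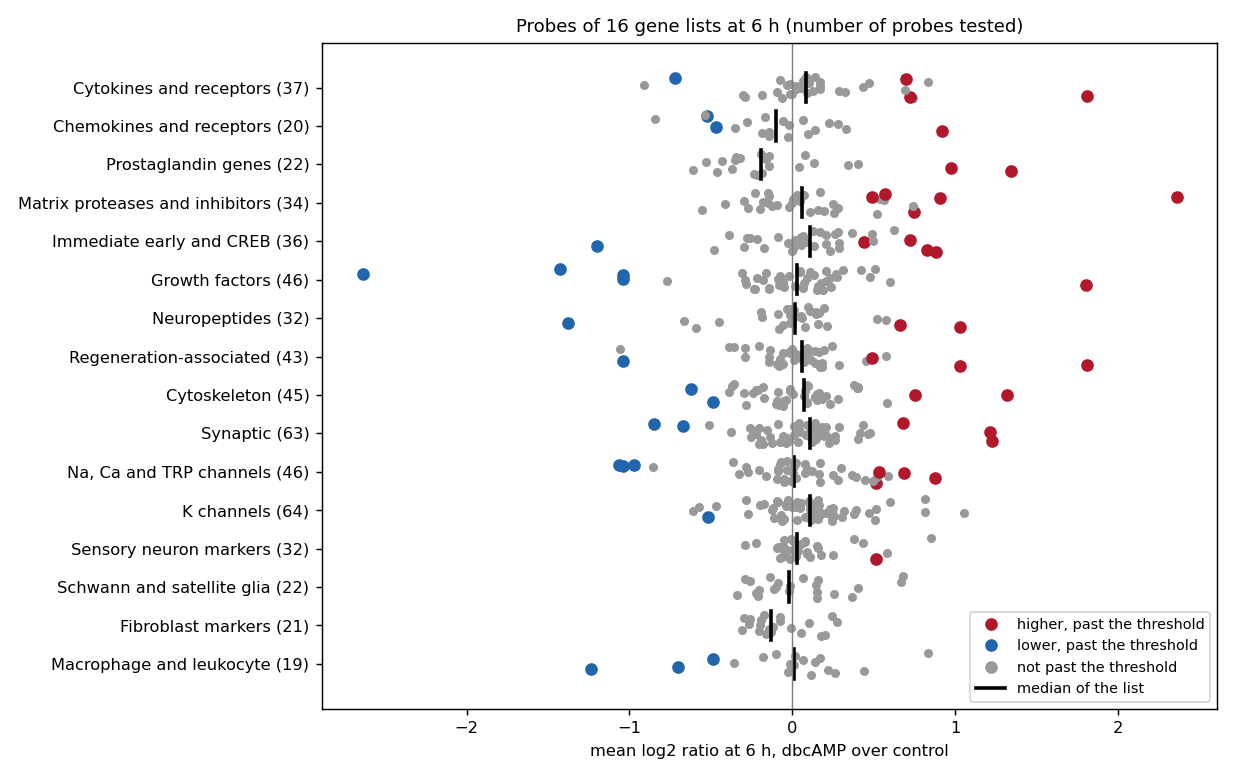
Mean log2 ratio at 6 h (dbcAMP over control, x axis) of each probe in 16 gene lists, with the number of probes tested in brackets, called probes in red (higher) or blue (lower), others in grey and the list median as a black bar. Matrix proteases and inhibitors show 5 red points and no blue one, and the medians of the 16 lists lie between -0.19 and 0.11. Over all probes tested, 1.84% were higher and 2.35% lower.

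Channels and cytoskeletal genes split in both directions. Of 46 sodium, calcium and TRP channel probes, 4 were higher (Scn2a, Cacna1e, Trpc2 and Scn11a) and 3 were lower (Cacna1e, Cacna1i and Cacna1a). Cacna1e stands on both sides, since probe 21F09 read 0.67, 0.70 and 0.69, probe 41D01 read -1.20, -0.68 and -1.03, and probe 21H01 averaged -0.03. Of 45 cytoskeleton probes, those of the microtubule-associated proteins Map1b (31C04 only) and Map1a were higher. The intermediate filament genes Nes (-0.59, -0.37 and -0.91) and Vim (-0.42, -0.43 and -0.62), which are used as markers of precursor, glial and mesenchymal cells, were lower. The Nes probe came from source plate 43, and with arrays centred on plate medians it averaged -0.16 and was not called (adjusted p = 0.581, limma). Vim lost its call when any 1 array was left out (adjusted p between 0.0611 and 0.135). Of 64 potassium channel probes only Kcnj1 was called, lower at a mean of -0.52, and the call was lost without array 1 or without array 3. Among 43 probes of regeneration-associated genes, 3 were higher (Il6, Vgf and Plaur) and 1 was lower (Fgf2), and Gap43, the growth cone protein, read -0.04, 0.09 and -0.28 and was not called. Arg1, the enzyme that feeds polyamine synthesis, averaged 0.18 and was not called either. Of 23 probes for genes that the study names for this treatment, a list it chose on these samples and so no independent evidence, 4 were higher (Il6, Slpi, Sod3 and Vgf) and 2 were lower (both Ccl2). Ldha, lactate dehydrogenase, read 0.18, 0.60 and 0.39 and missed the threshold (adjusted p = 0.0548), and Fbln5, Htra1 and Grina averaged 0.10, 0.02 and 0.23.

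Of 46 probes of growth factors and their receptors, 1 was higher (Fgfr1, probe 29C08 only) and 4 were lower, with a median of 0.03. Fgf2 read -1.44, -1.66 and -0.01, a mean of -1.04, and array 3 showed none of the decrease of the others. The call of Fgf2 was lost without array 1 or without array 2. Fgf5 read -1.12, -1.44 and -0.55. The other lower probes were Fgfbp1 (-2.18, -2.22 and -3.52), a protein that releases fibroblast growth factors from the matrix, and 1 of the probes of Vegfa (52C12: -1.43, -1.33 and -1.51), whose other probe (25C10) averaged 0.24. Ccnd1, the D-type cyclin of the G1 phase, also had 1 low probe, with -2.38, -2.56 and -3.28 on probe 53G02 and 0.37, 0.24 and 0.25 on probe 30F03, of which only the first was called. Because the means of the 2 probes of each gene lay on opposite sides of 0, neither Ccnd1 nor Vegfa is given a direction.

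The lower calls were unevenly spread over the 53 source plates of the probes, which the probe names give. Plates 1 to 35 held 74 higher and 24 lower calls among 3354 probes tested, and plates 36 to 53 held 19 higher and 95 lower calls among 1704. Plates 36, 41, 43 and 52 alone held 21, 18, 21 and 10 lower calls, out of 96 probes each. The median log2 ratio of a plate was low on array 3 where it was less so on the others. On plate 36 the medians were -0.16, -0.18 and -1.26 on arrays 1, 2 and 3, and on plate 43 they were -0.23, -0.18 and -0.99. On plate 41 the 3 arrays were alike, at -0.20, -0.20 and -0.14. Across the 53 plates the medians of arrays 1 and 2 correlated at 0.85, and those of array 3 correlated at 0.56 with either, as a description over plates printed on the same slides. Without array 3, the lower calls on plates 36 and 43 numbered 7 and 9. With every array centred on its plate medians, 163 probes were called, 82 higher and 81 lower, and 145 of them were among the 212. The part of the plates in single lower calls was not tested beyond these counts.

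**Figure D4:**
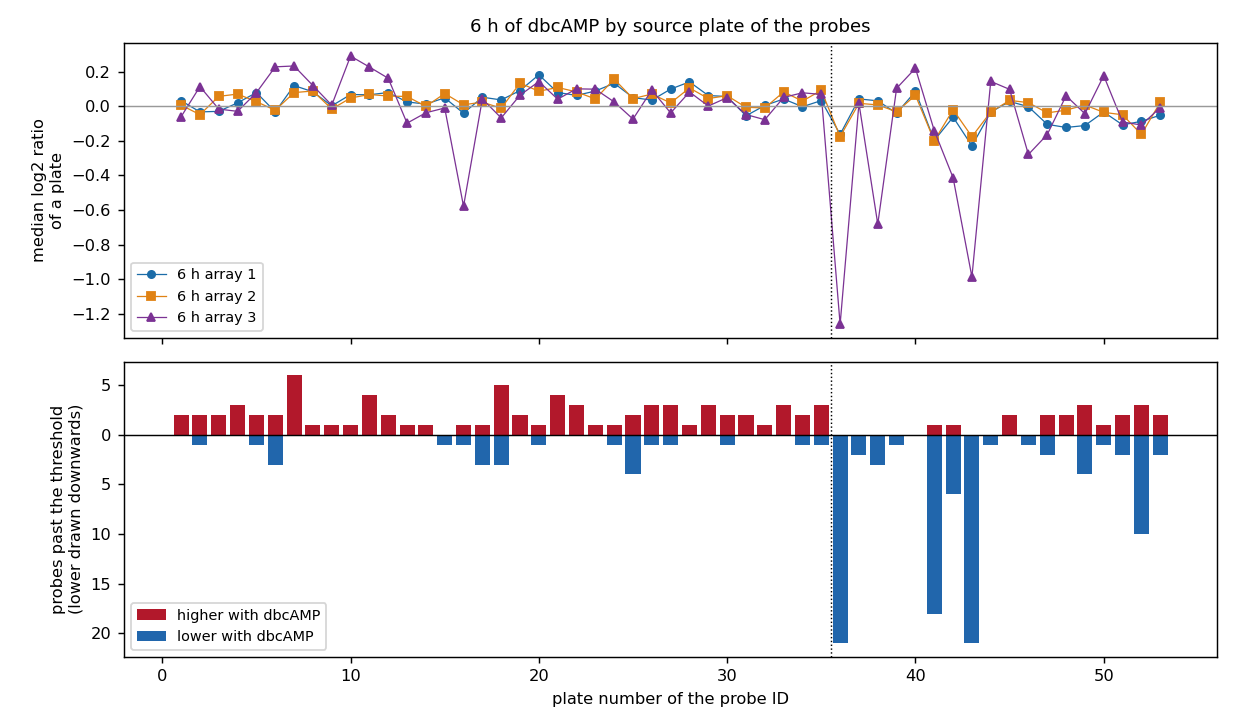
Median log2 ratio (dbcAMP over control) on each of the 3 arrays of 6 h (top) and number of probes called higher (up) and lower (down; bottom) against the source plate number of the probes, with a dotted line between plates 35 and 36. Array 3 drops to -1.26 on plate 36 and -0.99 on plate 43, where 21 lower calls each are found, and plate 41 holds 18 lower calls with all arrays near -0.2.

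The named genes with the lowest means came largely from these plates. Inpp4b, a phosphoinositide phosphatase, on plate 36, read -2.70, -2.06 and -4.41, a mean of -3.05 ± 0.34 (adjusted p = 0.00025, limma). Insig1, which holds back cholesterol synthesis, read -3.14, -0.82 and -2.34, and the kinases Map2k5 and Map2k1, also on plate 36, averaged -1.80 and -1.69. Nell2, a secreted neuronal protein, on plate 43, had close arrays at -1.48, -1.45 and -1.59, and Slit2, an axon guidance ligand on the same plate, read -1.25, -0.88 and -2.09. On plate 41, Dlgap2, a postsynaptic scaffold protein, read -3.21, -2.43 and -1.28, and the calcium channel gene Cacna1a read -1.27, -0.87 and -1.05. Several were similarly low at 1 h. At that time Inpp4b, Dlgap2, Nell2 and Slit2 averaged -2.08, -2.70, -1.44 and -1.58, and the difference between 6 h and 1 h passed for none of them. Outside these plates the complement gene C5 (-1.67, -1.11 and -1.14) and the cell cycle factor E2f1 (-1.70, -1.22 and -0.84) were lower, also with 1 h means of -1.20 and -1.22.

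Taken over all plates, the higher and the lower probes at 6 h had different histories. The 93 higher probes had a median log2 ratio of 0.28 at 1 h, 0.41 at 3 h, 0.77 at 6 h, 0.47 at 12 h and 0.56 at 18 h, where the value at 6 h is raised by the choice of probes. The 119 lower probes had medians of -0.65, -0.72, -0.97, -0.75 and -1.05 at these times. At 1 h, 32 of the 93 higher probes and 78 of the 119 lower probes had reached at least 50% of their 6 h value. Of the 24 lower probes on plates 1 to 35, 11 had done so, and their median at 1 h was -0.14, against 67 of the 95 on plates 36 to 53, with a median of -0.74. Of the 74 higher probes on plates 1 to 35, 23 had done so, with a median at 1 h of 0.262. For the 19 higher probes on plates 36 to 53 these values were 9 and 0.294. The lower calls of plates 36 to 53 thus weigh heavily in the contrast at 1 h. Called in the same direction at 1 h were 71 of the 212 probes, at 3 h 89, at 12 h 123 and at 18 h 147, at times when 2.33%, 2.87%, 8.58% and 22.0% of all probes tested were called. By direction, the shares called higher at 1, 3, 12 and 18 h were 0.732%, 0.931%, 3.81% and 10.6%, and those called lower were 1.60%, 1.94%, 4.77% and 11.3%. All 5 times called 48 of them, and 41 were called at 6 h only, which does not show that they differ at the other times. All these contrasts come from 1 fit that shares its spread.

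Direct tests of the difference between times, in which a constant dye bias cancels, found far fewer probes. Between 6 h and 1 h, 7 of 5038 probes differed (0.139%), 5 higher (0.0992%) and 2 lower (0.0397%) at 6 h. Inhba averaged 2.20 at 6 h and -0.13 at 1 h, a difference of 2.34 ± 0.27 (SE, adjusted p = 0.00129, limma). Tnfaip6 averaged 2.36 at 6 h and 0.56 at 1 h, a difference of 1.80 ± 0.19 (adjusted p = 0.000846). Vgf (probe 1D09) and Sod3 differed by 1.12 and 0.84, and both were close to 0 at 1 h, at -0.09 and 0.05. Ccl2 (probe 26C01) turned over, with a mean of -0.47 at 6 h and 0.49 at 1 h, a difference of -0.96 (adjusted p = 0.037). The arrays of 6 h and of 1 h did not overlap for any of these 5 genes, which choosing them by this difference makes likely. The share of all probes without overlap was not counted. Inhba and Tnfaip6 kept this call when any 1 of the 3 replicate numbers was left out, and Vgf, Sod3 and Ccl2 lost it whichever was left out, with adjusted p between 0.13 and 0.434. With all arrays scaled to a common spread, 5 probes were called, 3 of them among the 7. Inhba and Ccl2 kept the call, and Tnfaip6 (difference 1.75, adjusted p = 0.179), Sod3 (0.86, adjusted p = 0.194) and Vgf (1.21, adjusted p = 0.0542) lost it. The remaining 2 probes have no gene symbol here, 7E10 (difference 1.07) and 17H06 (difference -1.82), which read -1.52, -1.75 and -1.78 at 6 h and averaged 0.13 at 1 h.

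**Figure D5:**
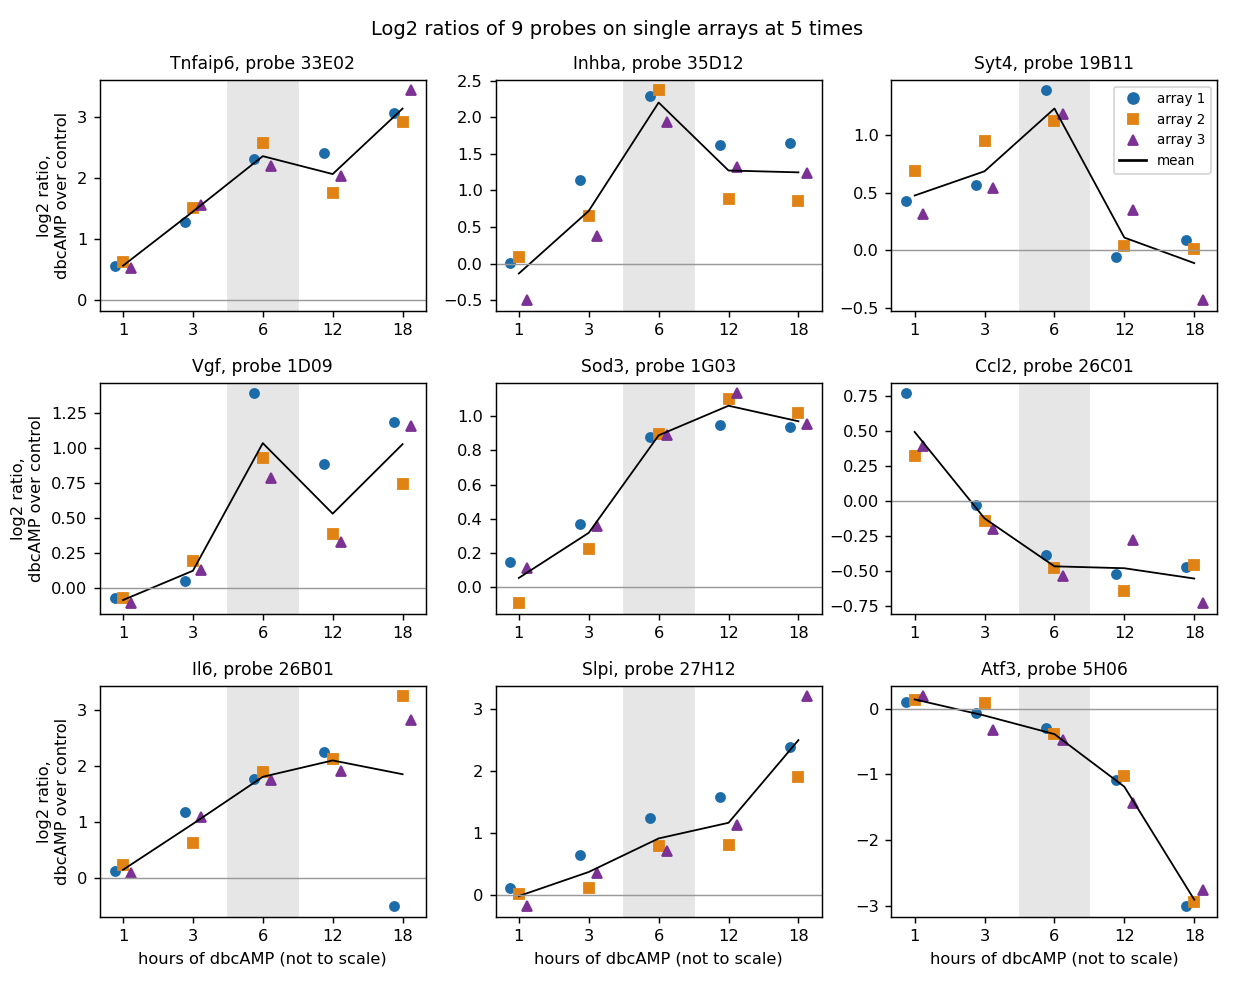
Log2 ratio (dbcAMP over control, y axis) of 9 probes on single arrays at 1, 3, 6, 12 and 18 h, with the mean as a line and 6 h shaded. Inhba and Syt4 are highest at 6 h, Tnfaip6, Sod3 and Vgf are above their 1 h values at 6 h, Ccl2 crosses from above to below 0, 1 array of Il6 at 18 h reads -0.50, and Slpi and Atf3 change mostly after 6 h.

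At 6 h 2 named genes stood apart from the rest of the time course. Inhba exceeded the mean of the other 4 times by 1.42 ± 0.21 and Syt4 by 0.94 ± 0.15 (adjusted p = 0.0303 for both, limma). The means of Syt4 at 1, 3, 6, 12 and 18 h were 0.47, 0.68, 1.23, 0.11 and -0.11. Those of Inhba were -0.13, 0.72, 2.20, 1.27 and 1.25. Of 4964 probes, 4 passed this test (0.0806%), 3 higher (0.0604%) and 1 lower (0.0201%), the other two being the unnamed 7E10 (0.95) and 17H06 (-0.89). Inhba and Syt4 lost the call when any 1 replicate number was left out at all times, with adjusted p for Inhba between 0.17 and 0.77 and for Syt4 between 0.46 and 0.77, and no probe was called with all arrays scaled to a common spread. Between 6 h and 3 h, 2 of 5031 probes differed (0.0398%), 1 lower and 1 higher at 6 h (0.0199% each), namely 17H06 and Rps4x-ps9, a ribosomal protein pseudogene that averaged -0.45 at 6 h and -2.15 at 3 h.

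Several of these genes, and Atf3, were farther from 0 at 18 h than at 6 h. Between 18 h and 6 h, 137 of 4996 probes differed (2.74%), 47 higher (0.941%) and 90 lower (1.80%) at 18 h. Atf3 averaged -2.90 at 18 h and -0.39 at 6 h, a difference of -2.51 ± 0.15 (adjusted p = 1.99e-06, limma). S100a9, S100a8 and Defa5 had differences of -1.47, -1.38 and -1.77. Slpi averaged 2.49 at 18 h and 0.91 at 6 h (difference 1.58), Csf3 averaged 1.69 and 0.72 (0.97), Hmox1 averaged 1.46 and 0.49 (0.97), and Slc2a1 averaged 1.23 and 0.42 (0.81). The difference of Tnfaip6 was 0.78 and turned to -0.43, no longer called, with all arrays scaled to a common spread. This scaling also reduced the differences of Slpi to 0.65, of Csf3 to 0.34, of Hmox1 to 0.49, of Slc2a1 to 0.34, of S100a9 to -0.78, of S100a8 to -0.58 and of Defa5 to -0.51, none of which was then called, and that of Atf3 to -1.50, which was (adjusted p = 0.0241). Syt4 and Rgs2 were lower at 18 h than at 6 h, with differences of -1.34 and -0.71, and had -1.35 and -0.76 after scaling, where neither was called. In all, 5 probes differed when the arrays were scaled and 2 when the arrays of these times alone were fitted.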

How the data were processed

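The authors deposited 1 linear ratio per probe and array, read here as dbcAMP (Cy5) over control (Cy3). RNA was labelled with the Genisphere 3DNA dendrimer system. How they corrected background, normalized and filtered is not given in the sources used here. Scanner intensities were not used here. The number of arrays limits the precision. Median ratios of the 6 h arrays were 1.011, 1.015 and 0.997, so log2 ratios were not centred. Gene symbols came from the platform annotation of GEO, and 4375 matched the GRCr8 gene table by gene ID. Several probes of a gene were kept apart. No 2 arrays of 6 h shared more than 1 identical ratio.

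Means per time were fitted over all 15 arrays with limma 3.58.1 (lmFit, eBayes) in R 4.3.3, the 6 h mean was tested against 0, two-sided, and times were compared by contrasts, with Benjamini-Hochberg adjustment over all probes tested and a threshold of 0.05. A probe was tested with a ratio on at least 2 arrays of each time. The members, gene lists, tests and naming rule were chosen with earlier results of these data known. The rule took the 15 highest and 15 lowest named probes called with 1 sign on all arrays, the 4 smallest p per list, the genes the study names for this treatment, and the 5 highest and lowest called differences. Not all of them are described. Promoters were taken from the called genes highest at 6 h that held the element. Alternatives were other scalings, array weights, a replicate block, a robust prior (statmod 1.5.0), plate centring, other filters, thresholds and sets of arrays, the methods' t-test and leaving out a replicate. The fit was tested on simulated data. Plots used matplotlib 3.10.9.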

Additional observations from a re-analysis of the deposited data

Results flagged for a closer look

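Effects of dbcAMP differed between times by the tests of the difference itself for 7 probes between 6 h and 1 h, for 2 probes between 6 h and 3 h, for 137 probes between 18 h and 6 h, and for 4 probes between 6 h and the mean of the other 4 times (limma, adjusted p under 0.05). Among named genes, the log2 difference between 6 h and 1 h was 2.34 for Inhba, 1.80 for Tnfaip6, 1.12 for Vgf, 0.84 for Sod3 and -0.96 for Ccl2. Against the mean of the other times, Inhba was higher at 6 h by 1.42 and Syt4 by 0.94.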

How the results depend on the processing

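The count of 212 probes at 6 h was 207 to 295 under array centring, scaling, array weights, a robust prior, stricter filters on missing ratios and the arrays of 1, 3 and 6 h alone. It was 163 with plate centring, 95 at an adjusted p under 0.01, 10 when only the 6 h arrays were fitted, 461 by the methods' t-test unadjusted and 0 by that test after Benjamini-Hochberg adjustment. Leaving out array 3 of 6 h gave 103 probes, 88 of them among the 212. Leaving out array 1 gave 120 with 106 shared, and leaving out array 2 gave 149 with 121 shared. For the 7 probes between 6 h and 1 h the counts were 22 with array weights, 14 with 1, 3 and 6 h alone, 3 at 0.01, 293 and 0 by the t-test unadjusted and adjusted, and 3 to 5 without a replicate number. For the 2 between 6 h and 3 h they were 4 with scaling, 9 with array weights, 1 with 1, 3 and 6 h alone, 0 with the compared times alone, 1 at 0.01, 263 and 0 by the t-test, and 0 to 1 without a replicate number. For the 137 between 18 h and 6 h they were 5 with scaling, 49 with array weights, 2 with the compared times alone, 19 at 0.01, 569 and 0 by the t-test, and 67 to 103 without a replicate number. For the 4 against the mean of the other times they were 0 with scaling, 0 at 0.01, 436 and 1 by the t-test, and 0 to 1 without a replicate number. The cause was not tested. A fit of 1, 3 and 6 h cannot give the last 2 comparisons.

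The replicate number as a block gave 211 probes at 6 h, 5 between 6 h and 1 h, 2 between 6 h and 3 h, 101 between 18 h and 6 h and 4 against the other times. Arrays of the same number at different times deviated together in none of 30 pairs (r between -0.0589 and 0.0693 over all probes). These correlations cannot tell whether arrays of the same number share a culture, because array noise in most probes also holds them near 0. No called direction of a named probe at 6 h turned round under any alternative run. Of the named differences between times, that of Tnfaip6 between 18 h and 6 h turned to -0.43 with scaling.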

Other observations

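Lists of genes that most cells use were counted beside the 4.19% of all probes tested that were called at 6 h of dbcAMP. Of 35 probes of chaperones and of 31 of the proteasome none passed the threshold (limma; 2 higher and 1 lower at an unadjusted p under 0.05 in each list), with means between -0.42 and 0.55 and between -0.31 and 0.35. Of 65 ribosomal protein probes only Rps10 passed. Of 29 respiratory chain probes, Ucp1, an uncoupling protein with a ratio on 2 arrays (0.54 and 0.98), and Ndufa5 (0.58, 0.43 and 0.50) were higher, and 1 of 3 Cox6c probes was lower. Ndufa5, a subunit of complex I, averaged -0.33 at 18 h and 0.50 at 6 h, a difference of -0.83 that passed (adjusted p = 0.0174) and was -0.73 and no longer called with arrays scaled to a common spread (adjusted p = 0.0981). At 6 h Ndufa5 and Cox6c lost their calls when any 1 array was left out, with adjusted p between 0.0543 and 0.108 and between 0.0658 and 0.256. Of 21 neurotrophin and GDNF probes none passed, and 4 were lower at an unadjusted p under 0.05. Of 15 probes of the cholesterol list only Insig1, from source plate 36, was called, and it was lower. The list's median was 0.16, and 11 of its 15 probes lay above 0. At an unadjusted p under 0.05 (limma), 4 were higher and 1 was lower.

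The probe without a gene symbol named 17H06 read -1.52, -1.75 and -1.78 at 6 h, against means of 0.13 at 1 h and -0.31 at 3 h, and it averaged -1.46 at 12 h and -1.55 at 18 h. Probe 7E10, also unnamed, read 1.60, 1.52 and 1.85 at 6 h and averaged 0.59, 1.62, 0.42 and 0.21 at 1, 3, 12 and 18 h. Both were chosen after their values were seen.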
